A study of Mus musculus with 4 samples.

Results

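WNT signalling genes were followed in mouse embryonic stem cells between day 2 (d2) and day 4 (d4) of differentiation toward cardiogenic mesoderm and endothelium. The 51 genes described here are 19 WNT ligands, 10 Frizzled receptors, 4 DKK and 4 SFRP antagonists, 4 R-spondins, 4 TCF/LEF transcription factors and 6 feedback targets of the pathway. They were taken by name from the 55487 genes of the count table, and all 51 had a row in it. Day 2 and day 4 were each measured by strand-specific, paired-end RNA-seq in 2 biological replicates. All 4 libraries came from the wild-type line ES-E14TG2a (E14-Tg2a), which is maintained without feeders in serum and LIF. At d2 the cells had spent 48 h as embryoid bodies in serum-free medium. For d4 the bodies were taken apart and allowed to form again over 40 h in medium that held VEGF at 5 ng/ml, BMP4 at 0.5 ng/ml and, at 8 ng/ml, Activin A. No WNT protein is named among these additions. Time, added factors and reaggregation changed together between the days, so their effects on any gene cannot be told apart. The line is a single cell line and the samples are bulk RNA of mixed cells, so fewer cells of a type and less RNA per cell cannot be told apart either.

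WNT proteins are secreted, lipid-modified ligands. On the receiving cell they bind a Frizzled receptor together with the co-receptors LRP5 and LRP6, which stabilises beta-catenin and lets it act with TCF/LEF factors on target genes. Other WNT proteins signal through Frizzled and ROR receptors to cell polarity and movement. In the gastrulating embryo, WNT signalling is required for the primitive streak and for posterior mesoderm, and it must later be held back for heart formation.

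TCF/LEF factors bind short sites that end in CTTTGAT or CTTTGTT, and the promoters of the genes were searched for these letters on both strands. RefSeq promoter windows (GRCm38.p6, from 250 bases before to 50 bases after the start site) were at hand for 34 of the 51 genes, as 42 windows. CTTTGAT was found in 3 member windows (7.14%, against 3.73% of all 32851 windows) and CTTTGTT in 5 (11.9%, against 5.85%). Either was found in 7 (16.7%, against 9.33%), and no matches overlapped each other. The 7 windows with a match belong to Sp5, Dkk1, Wnt3, Wnt11, Wnt5b, Fzd7 and Tcf7l2. Those of Dkk1, Wnt3 and Wnt11 are printed as the genes of the 7 that were called higher at d4, and that of Sp5 as a feedback target with both runs, each match in capitals. Sp5 has a CTTTGTT on the reverse strand (printed as AACAAAG) 222 bases before the start and a CTTTGAT 104 bases before it. Dkk1 has a CTTTGTT 98 bases before the start, Wnt3 a CTTTGTT 18 bases after it, and Wnt11 a CTTTGAT on the reverse strand (printed as ATCAAAG) 51 bases before it.
Sp5, chr2:70474673-70474972, + strand: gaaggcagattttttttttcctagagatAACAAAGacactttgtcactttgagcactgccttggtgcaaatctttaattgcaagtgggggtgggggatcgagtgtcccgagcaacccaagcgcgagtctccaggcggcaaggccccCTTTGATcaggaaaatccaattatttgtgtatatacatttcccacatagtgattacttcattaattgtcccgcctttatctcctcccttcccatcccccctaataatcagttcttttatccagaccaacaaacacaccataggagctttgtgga
Dkk1, chr19:30549447-30549746, - strand: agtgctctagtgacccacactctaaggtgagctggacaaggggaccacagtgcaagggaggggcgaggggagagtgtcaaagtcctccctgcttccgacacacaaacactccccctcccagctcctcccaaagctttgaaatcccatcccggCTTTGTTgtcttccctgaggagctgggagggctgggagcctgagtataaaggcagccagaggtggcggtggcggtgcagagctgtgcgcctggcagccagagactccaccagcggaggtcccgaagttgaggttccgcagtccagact
Wnt3, chr11:103773925-103774224, + strand: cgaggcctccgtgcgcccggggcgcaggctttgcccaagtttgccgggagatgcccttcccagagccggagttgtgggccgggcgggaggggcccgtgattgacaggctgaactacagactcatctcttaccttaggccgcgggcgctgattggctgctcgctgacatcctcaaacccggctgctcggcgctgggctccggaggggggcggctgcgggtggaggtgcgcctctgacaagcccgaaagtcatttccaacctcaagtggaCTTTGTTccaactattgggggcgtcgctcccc
Wnt11, chr7:98834862-98835161, + strand: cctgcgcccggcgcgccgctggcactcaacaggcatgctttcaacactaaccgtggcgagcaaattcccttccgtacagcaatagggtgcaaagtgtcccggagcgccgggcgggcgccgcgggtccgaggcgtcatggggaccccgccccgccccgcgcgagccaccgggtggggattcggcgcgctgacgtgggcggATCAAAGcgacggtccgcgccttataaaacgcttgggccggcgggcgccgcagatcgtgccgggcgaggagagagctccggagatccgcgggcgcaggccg
Among the windows not printed, Wnt5b has a CTTTGAT 71 bases before a start, Fzd7, which was called lower at d4, a CTTTGTT on the reverse strand 130 bases before its start, and Tcf7l2 a CTTTGTT 14 bases before a start. Wnt5b and Tcf7l2 did not pass the test. The windows of Wnt2, Wnt4, Wnt9b, Fzd1, Fzd4, Fzd10, Dkk2, Axin2 and Nkd1, all called higher, held neither run of letters. The Nkd1 window (chr8:88527383-88527682) lies at a start inside the gene, whose first annotated base is 88521354. A match is a description of the sequence and does not show that a factor binds there.

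The libraries held 11397439 to 16851485 counts. Pearson correlations of the log2 values were 0.983 and 0.977 between replicates of a day and 0.775 to 0.803 between days. The cells of d2 still carried the pluripotent and primed epiblast genes: Pou5f1 was at 1000 and 721 CPM (counts scaled to library size) at d2 and at 4.40 and 3.82 CPM at d4. Of the marker lists, 6 of 8 pluripotency and 5 of 5 primed epiblast genes fell. At d4, genes of several mesodermal cell types had risen, with 5 of 7 tested primitive streak genes, 7 of 8 endothelial, 8 of 8 primitive blood and 7 of 7 tested cardiac mesoderm genes higher. The summed level of the endothelial list went from 39.9 and 33.1 CPM to 1280 and 994 CPM, that of the blood list from 3.03 and 3.42 to 728 and 539 CPM, and that of the cardiac list from 1.88 and 1.67 to 565 and 509 CPM. The streak list went from 12.5 and 16.3 to 392 and 341 CPM. All 3 tested endoderm genes (Sox17, Cxcr4 and Cer1) rose, from a list sum of 1.31 and 1.75 to 118 and 111 CPM. Cxcr4 alone made 103 and 104 CPM of the d4 sum, while Foxa2, Foxa1, Ttr and Afp were under the filter. All 3 tested neuroectoderm genes fell, from a list sum of 138 and 120 to 65.2 and 56.2 CPM. Nes alone made 132 and 115 CPM of that sum at d2 and 64.8 and 55.8 CPM at d4. Among the tested markers, Alas2, Hand1, Tbx5 and Sox17 had 0 counts at d2, and Utf1 had 0 counts at d4. These lists moved together with the WNT genes, and the part of cell type in the results on the WNT genes was not tested.

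The WNT genes changed in both directions between the days, and most of those measured changed. Of the 51 genes, 37 passed a filter on low counts. It asked that the summed counts of at least 1 day lie above 0.5 CPM by a one-sided proportion test (adjusted p under 0.05). A gene slightly above 0.5 CPM could fail it, as Sp5 did with 0.931 and 0.588 CPM at d4. At d4, 18 of the 37 were higher (48.6%, against 12.9% of all 14932 genes tested) and 9 were lower (24.3%, against 11.3%). The remaining 10 did not pass the test. A gene that passed the filter through 1 day alone was more likely to differ between days, so these shares describe the measured genes and not the 51. Calls were made by edgeR's quasi-likelihood test at a Benjamini-Hochberg adjusted p under 0.01. Where a standard error (SE) follows a fold change, it is on the log2 scale. It was derived as the size of the log2 fold change divided by the square root of the test's F statistic, and is approximate. The median log2 fold change was 1.31 over the 37 and -0.027 over all genes tested. Levels are given as CPM with TMM-normalized library sizes in d2 replicates 1 and 2 and then d4 replicates 1 and 2. Values of d4 lay above both d2 values for 20 of the 37 and below both for 14. The same count was not made over all genes, so it does not set the members apart. With either d2 library left out, edgeR called 0 of all 14932 genes: 6343 genes (31 members) had an unadjusted p under 0.05 without d2 replicate 1, and 6012 (31 members) without d2 replicate 2. DESeq2 on the same libraries called 14 members higher and 5 lower without d2 replicate 1, and 13 higher and 6 lower without d2 replicate 2. The direction of the 27 called genes was the same in each of these fits. It could hardly change there, since the values of all 27 did not overlap between days.

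**Figure D1:**
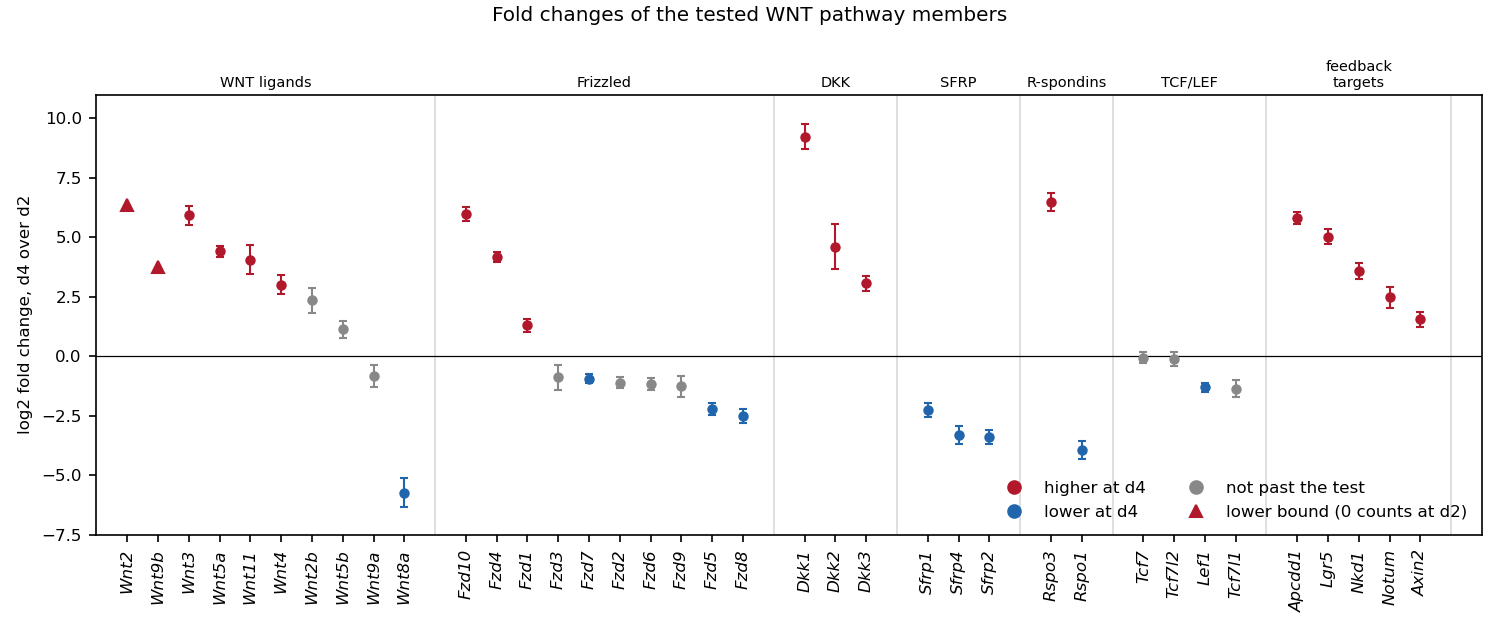
Log2 fold change of the 37 tested genes, d4 over d2, grouped by class. Points are fitted values with bars of 1 SE, triangles are lower bounds for Wnt2 and Wnt9b, which had 0 counts at d2, and colour marks genes that were higher, lower or not past edgeR's test. All tested DKK genes and feedback targets lie above 0 and all tested SFRP genes below it, while ligands and Frizzleds fall on both sides.

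**Figure D2:**
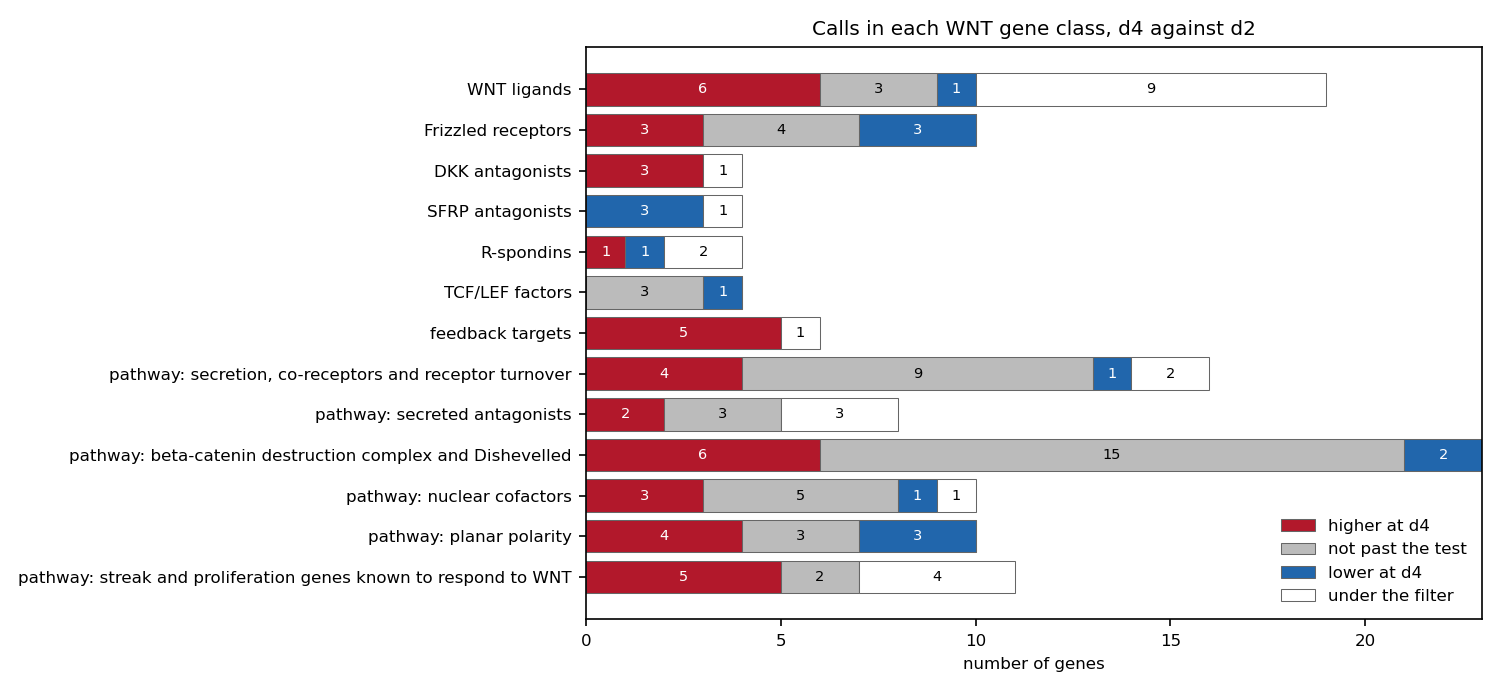
Number of genes of each WNT class that were higher at d4, lower at d4, not past the test or under the filter on low counts. The upper 7 bars are the classes of the 51 genes and the lower 6 bars, named pathway, are further genes of the pathway. DKK genes and feedback targets hold no lower gene, and SFRP genes no higher one.

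Among the ligands, 6 genes rose, 1 fell and 3 did not pass the test, and 9 were under the filter. The genes that rose most in level were Wnt5a, Wnt3 and Wnt2, and the gene that fell was Wnt8a. Wnt3, the ligand that the embryo needs to form a primitive streak (chr11:103774150-103817957, + strand), was at 0.981 and 0.380 CPM at d2 and at 44.0 and 38.7 CPM at d4. Both d4 values lay far above both d2 values. The fold change was 60.6-fold (log2 5.92, SE 0.41, edgeR adjusted p = 1.1e-04), and the log2 value was 6.73 without d2 replicate 1 and 5.33 without d2 replicate 2. Wnt5a, which acts mainly on cell polarity and movement (chr14:28504750-28527448, + strand), was already measured at d2 at 5.32 and 6.38 CPM and reached 127 and 123 CPM. Its d4 libraries lay close to each other, and the rise was 21.4-fold (log2 4.42, SE 0.23, edgeR adjusted p = 5.6e-05). Wnt2 (chr6:17988940-18030585, - strand), a ligand known from early heart and blood vessels, had 0 counts in both d2 libraries and 222 and 341 counts at d4 (18.8 and 20.1 CPM). Against a floor of 3 counts per library at d2, Wnt2 was at least 82.1-fold higher at d4 (edgeR adjusted p = 1.1e-04).

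Further ligands rose from low levels to a few CPM. Wnt9b, a beta-catenin ligand of kidney tubules and face (chr11:103727364-103749821, - strand), had 0 counts at d2 and 40 and 51 counts at d4. With 3.39 and 3.00 CPM at d4, Wnt9b was at least 13.5-fold higher than the floor (edgeR adjusted p = 7.2e-04). Wnt4, known for its role in kidney and gonad (chr4:137277489-137299726, + strand), went from 0.736 and 0.456 to 5.42 and 4.24 CPM. The d4 values were all above those of d2, by 8.00-fold (log2 3.00, SE 0.40, edgeR adjusted p = 0.0013). Wnt11, a polarity ligand known for its part in early heart formation (chr7:98835112-98855195, + strand), went from 0.0818 and 0.456 to 6.01 and 3.53 CPM. Replicates of Wnt11 differed on both days, from 1 to 6 counts at d2 and from 71 to 60 counts at d4, and the groups did not overlap. The rise of Wnt11 was 16.7-fold (log2 4.06, SE 0.62, edgeR adjusted p = 0.0024), and the log2 value was 3.34 without d2 replicate 1 and 5.65 without d2 replicate 2.

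Wnt8a, a beta-catenin ligand of the early streak, went the other way. It had 50 and 56 counts at d2 (4.09 and 4.25 CPM) and 0 and 2 counts at d4 (0 and 0.118 CPM). Its d4 to d2 ratio was 0.0166, with an exact 95% counting interval of 0.00199 to 0.0616 that covers counting error only (edgeR adjusted p = 5.5e-04). The log2 fold change was -5.74, and -5.05 without d4 replicate 1, while without d4 replicate 2 the d4 count was 0. Wnt2b rose by 2.36 on the log2 scale with an adjusted p of 0.012, from 0.164 and 0.304 to 1.27 and 1.24 CPM, and so missed the threshold of edgeR's test. Wnt5b was at 2.21 and 1.37 CPM at d2 and at 3.64 and 4.18 CPM at d4 (edgeR adjusted p = 0.044). Wnt9a was at 1.14 and 0.835 CPM at d2 and at 0.508 and 0.588 CPM at d4 (edgeR adjusted p = 0.21). The values of these 3 genes did not overlap between days, which is no test at 2 libraries per day, and none passed edgeR's test. The ligands under the filter held few counts. Wnt1 and Wnt10a had 0 counts in all libraries, and Wnt3a, the sister gene of Wnt3, had 1, 1, 1 and 3 counts. Wnt16 had 3, 6, 3 and 6 counts and Wnt10b 0, 1, 1 and 1. Wnt7a had 4 and 6 counts at d2 and 0 at d4, Wnt7b 3 and 0 at d2 and 0 at d4, Wnt8b 2 and 0 at d2 and 0 at d4, and Wnt6 3 counts in d4 replicate 2 alone. A count of 0 does not show absence, since it allows a level of up to 3 counts, which is 0.177 to 0.254 CPM in these libraries.

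The ligand total became larger and its composition changed. CPM divided by exon length lets genes of 1 class be compared roughly. The length joins all annotated exons of a gene, whichever transcript the cells made. Summed over the 19 ligands, this level was 5.04 and 4.73 CPM per kb at d2 and 44.3 and 42.1 CPM per kb at d4, 8.85-fold higher. At d2, Wnt8a made up 46.5% and 51.5% of that sum, ahead of Wnt5a with 13.5% and 17.2% and Wnt5b with 16.5% and 10.9%, which overlapped. At d4, Wnt8a was at 0% and 0.160%. Wnt5a was then first with 36.7% and 37.4% (16.3 and 15.7 CPM per kb), Wnt3 second with 32.3% and 29.9% (14.3 and 12.6 CPM per kb) and Wnt2 next with 18.8% and 21.1% (8.33 and 8.90 CPM per kb). These 3 ligands did not overlap each other at d4. No test was made of the sums or shares.

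**Figure D3:**
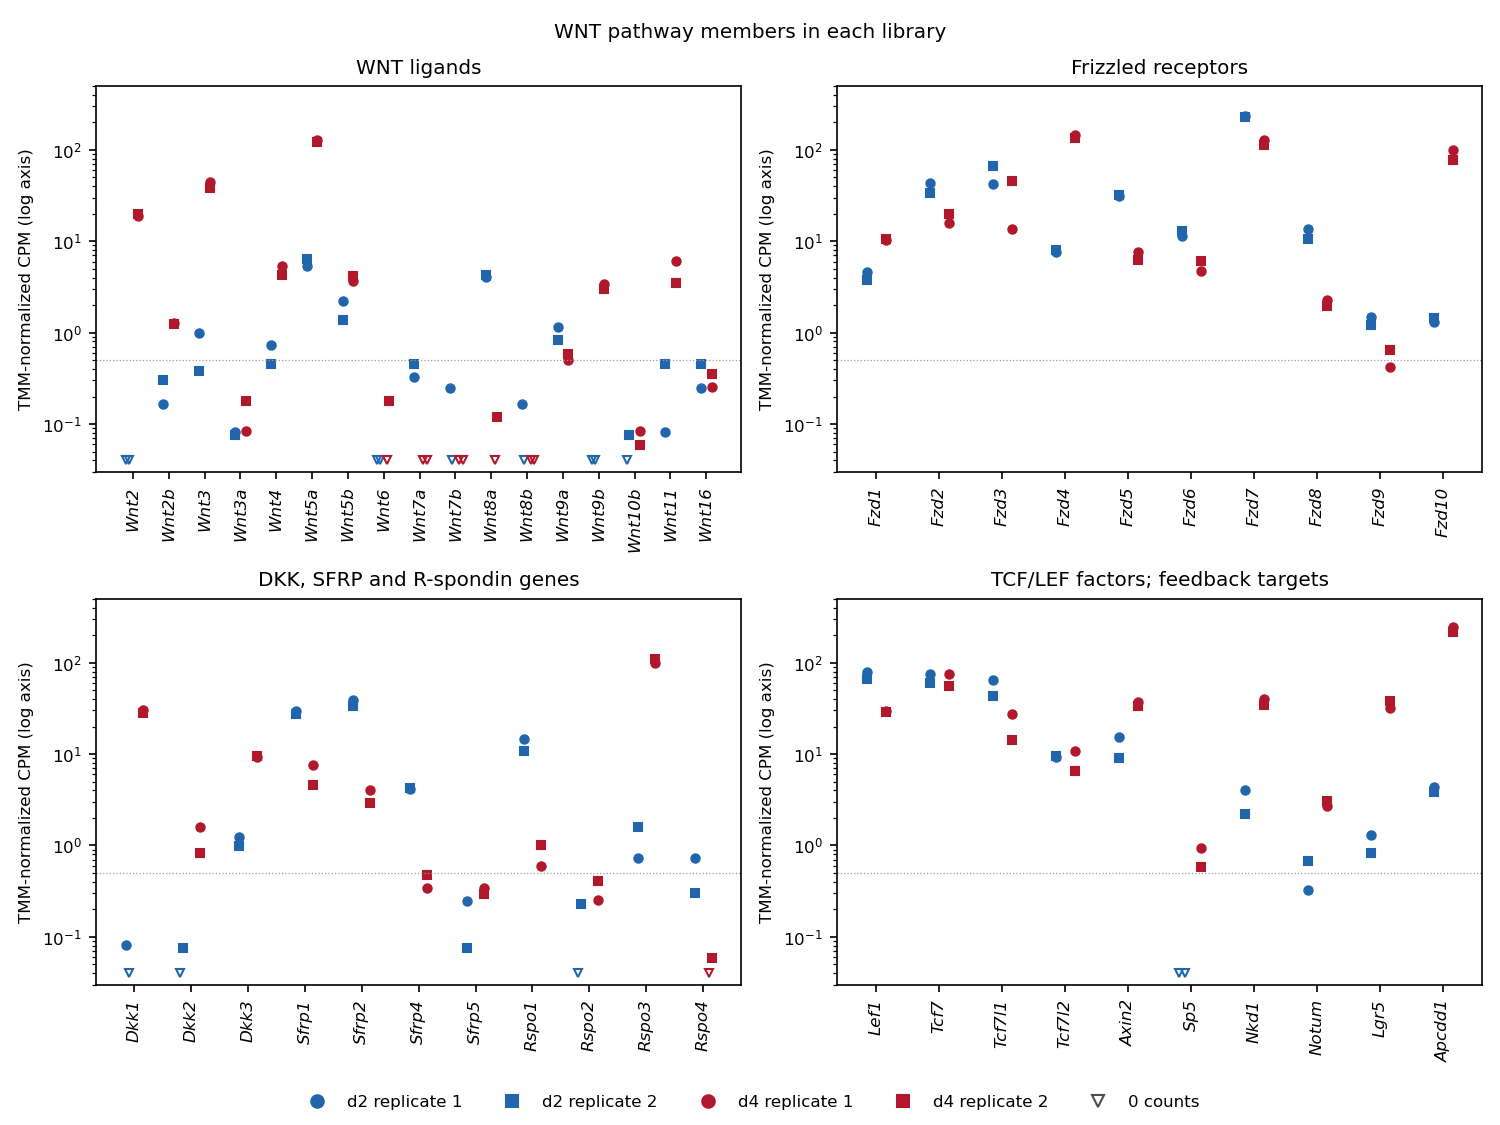
Level of each gene in the 4 libraries, in TMM-normalized CPM on a log axis, by class. Blue points are d2 and red points d4, circles are replicate 1 and squares replicate 2, open triangles at the bottom mark libraries with 0 counts, and the dotted line is 0.5 CPM. Wnt1, Wnt10a and Dkk4, at 0 counts in all libraries, are not drawn. Fzd4, Fzd10, Dkk1, Rspo3 and Apcdd1 show d4 points far above the d2 points, and Sfrp2 and Rspo1 the opposite order.

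All 10 Frizzled genes passed the filter. Fzd10, Fzd4 and Fzd1 rose, Fzd8, Fzd5 and Fzd7 fell, and 4 did not pass the test. Frizzleds are the membrane receptors that bind WNT proteins. Fzd10 (chr5:128600844-128604093, + strand) was at 1.31 and 1.44 CPM at d2 and at 98.9 and 76.7 CPM at d4. The rise was 63.3-fold (log2 5.98, SE 0.29, edgeR adjusted p = 4.5e-05). Fzd4 (chr7:89404355-89413134, + strand), known from vessel growth in the retina, went from 7.61 and 8.12 to 147 and 136 CPM. This was an 18-fold rise (log2 4.17, SE 0.22, edgeR adjusted p = 5.6e-05). Fzd1 rose less, from 4.66 and 3.80 to 10.3 and 10.6 CPM (log2 1.31, SE 0.27, edgeR adjusted p = 0.0084). Its call was lost with upper-quartile factors and with DESeq2 size factors in the same test.

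Of the receptors that fell, Fzd7 (chr1:59482424-59486955, + strand), known from undifferentiated stem cells, kept a high level. It was at 234 and 230 CPM at d2 and at 128 and 113 CPM at d4, and both d4 values were below both d2 values. The fall was 1.92-fold (log2 -0.94, SE 0.19, edgeR adjusted p = 0.0078), and the adjusted p in edgeR was 0.016 without d4 replicate 1 and 0.035 without d4 replicate 2. Fzd5 (chr1:64730558-64737751, - strand), a beta-catenin receptor, went from 31.5 and 32.0 to 7.62 and 6.18 CPM. Its fall was 4.61-fold (log2 -2.21, SE 0.24, edgeR adjusted p = 5.2e-04). Fzd8, close to Fzd5 in sequence, went from 13.6 and 10.6 to 2.29 and 1.94 CPM, 5.73-fold lower (log2 -2.52, SE 0.30, edgeR adjusted p = 8.1e-04). These groups did not overlap either. Fzd2 was at 43.9 and 33.6 CPM at d2 and 16.0 and 19.8 CPM at d4 (edgeR adjusted p = 0.011), and Fzd6 at 11.5 and 13.1 and then 4.74 and 6.12 CPM (edgeR adjusted p = 0.013). Fzd9 was low on both days, at 1.47 and 1.21 CPM and at 0.423 and 0.647 CPM (edgeR adjusted p = 0.063). Fzd3, which acts in planar polarity of axons, varied widely between replicates, at 42.2 and 65.9 CPM at d2 and 13.5 and 45.2 CPM at d4, and the days overlapped (edgeR adjusted p = 0.24). Its log2 fold change of -0.88 became -0.26 without d4 replicate 1 and -2.01 without d4 replicate 2. With replicate number as a block in the fit, edgeR called Fzd2, Fzd3 and Fzd6 lower. The labels do not say that this number marks a shared differentiation.

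The Frizzled total changed little in size beside its make-up, in which members changed places. Summed over the 10 receptors, the level was 79.3 and 77.4 CPM per kb at d2 and 91.1 and 83.0 CPM per kb at d4, a ratio of 1.11. At d2, Fzd7 made up 65.0% and 65.7% of the sum, and Fzd2 was second with 15.1% and 11.9%. At d4, Fzd10 held 33.4% and 28.4%, Fzd7 31.0% and 30.1% and Fzd4 24.1% and 24.4%. Fzd10 (30.4 and 23.6 CPM per kb) and Fzd7 (28.3 and 25.0 CPM per kb) overlapped at d4, so their order was not resolved. Fzd4, at 21.9 and 20.2 CPM per kb, lay below both. Fzd10 had been the lowest of the 10 at d2, with 0.508% and 0.574%.

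**Figure D4:**
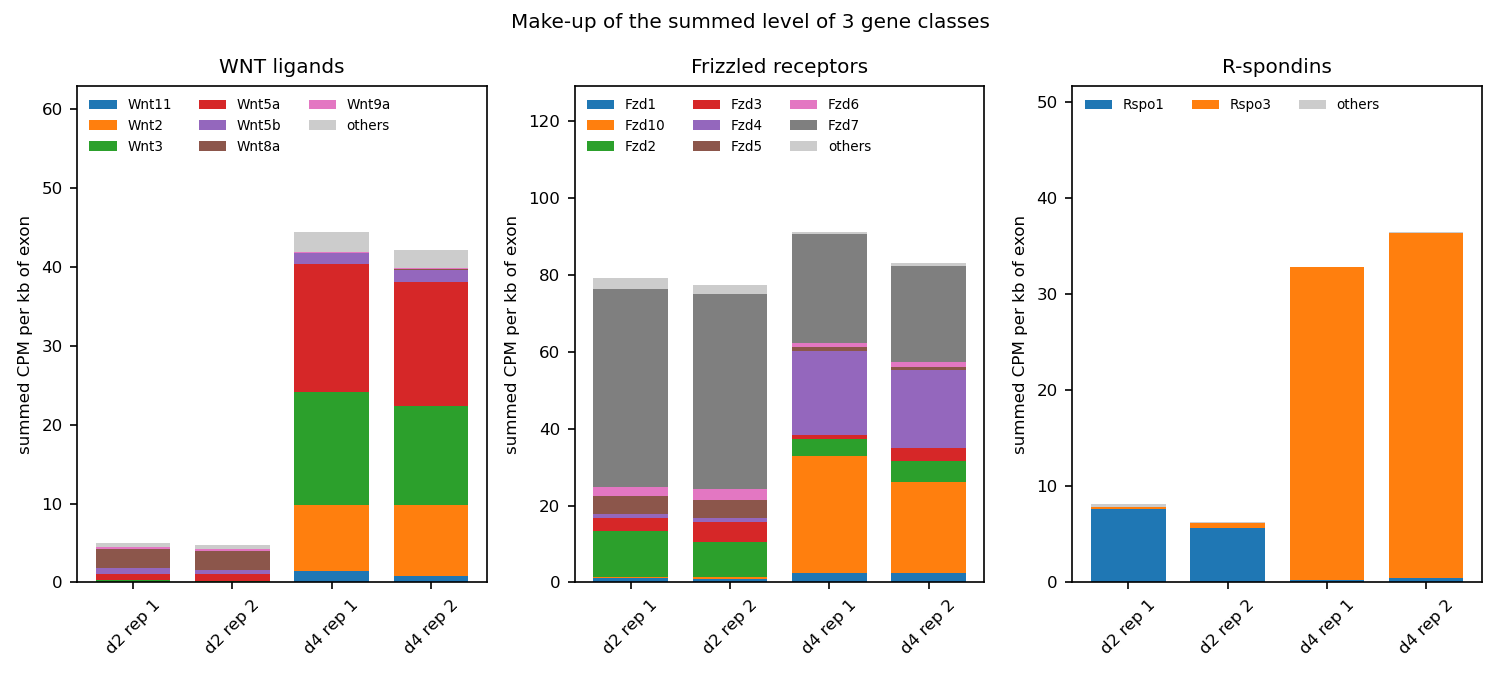
Make-up of the summed level (CPM per kb of exon) of ligands, Frizzleds and R-spondins in each library. Each bar is 1 library and each colour 1 gene, with low genes joined as others. The ligand and R-spondin bars grow from d2 to d4, and the Frizzled bars keep their height while Fzd10 and Fzd4 take the place of part of Fzd7 and Fzd2.

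Of the secreted antagonists in the DKK and SFRP lists, all 3 tested DKK genes were higher at d4 and all 3 tested SFRP genes lower. DKK proteins block WNT signalling at LRP5 and LRP6, and Dkk1, itself a target of the pathway, is expressed in the anterior of the gastrulating embryo. Dkk1 (chr19:30545863-30549665, - strand), whose promoter window is printed above, had 1 and 0 counts at d2 and 354 and 481 counts at d4 (30 and 28.3 CPM). The ratio was 736-fold with an exact 95% counting interval of 132 to 29100 (edgeR adjusted p = 6.6e-05). The fitted log2 fold change was 9.23, and 8.28 without d2 replicate 2, while without d2 replicate 1 the d2 count was 0. Dkk2 had 0 and 1 counts at d2 and 19 and 14 counts at d4, a ratio of 29.1-fold with an interval of 4.87 to 1180 (edgeR adjusted p = 0.0084). The Dkk2 call was lost with DESeq2 and with DESeq2 size factors, and its log2 fold change of 4.61 became 3.81 without d2 replicate 1. Dkk3, whose protein is an outlying family member with no settled role at the receptor, went from 1.23 and 0.987 to 9.23 and 9.41 CPM (log2 3.07, SE 0.31, edgeR adjusted p = 4.3e-04). Dkk4 had 0 counts in all libraries. The DKK sum rose from 0.399 and 0.314 to 15.5 and 14.7 CPM per kb, and Dkk1 made up 79.5% and 79.4% of it at d4.

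SFRP proteins carry a Frizzled-like domain that binds WNT proteins outside the cell. Sfrp2 (chr3:83766321-83774316, + strand) went from 39.1 and 33.9 to 4.06 and 2.88 CPM. It was 10.6-fold lower at d4 (log2 -3.40, SE 0.28, edgeR adjusted p = 1.8e-04). Sfrp1 (chr8:23411502-23449632, + strand) went from 29.3 and 27.7 to 7.53 and 4.53 CPM, 4.76-fold lower (log2 -2.25, SE 0.30, edgeR adjusted p = 0.0014). Sfrp4 fell from 4.17 and 4.25 to 0.339 and 0.471 CPM (log2 -3.32, SE 0.38, edgeR adjusted p = 7.1e-04), and the groups of all 3 genes stood apart. Sfrp5 was under the filter with 3, 1, 4 and 5 counts. Frzb, a further SFRP-type gene, was kept in the list of other antagonists and is not part of the sum below. It went from 1.31 and 2.28 to 4.32 and 2.71 CPM and did not pass the test (log2 0.94, edgeR adjusted p = 0.12). The SFRP sum fell from 26.0 and 23.2 to 3.87 and 2.64 CPM per kb, and Sfrp2 was the highest of the family at d2, while at d4 its values per kb overlapped those of Sfrp1.

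The R-spondins exchanged places. R-spondins strengthen WNT signals by binding LGR receptors and drawing away ZNRF3 and RNF43, which remove Frizzleds from the surface. Rspo1 (chr4:124986430-125009099, + strand) fell from 14.8 and 10.9 CPM to 0.592 and 1.00 CPM. This fall was 15.6-fold (log2 -3.96, SE 0.38, edgeR adjusted p = 3.4e-04). Rspo3 (chr10:29452416-29535867, - strand), an R-spondin required for vessels of the placenta, rose from 0.736 and 1.59 CPM to 100 and 110 CPM. The rise was 89.1-fold (log2 6.48, SE 0.37, edgeR adjusted p = 6.9e-05), and the log2 value was 7.10 without d2 replicate 2. Rspo1 made up 93.3% and 89.1% of the R-spondin level per kb at d2, and Rspo3 98.9% and 98.3% at d4. The sum over the 4 genes went from 8.19 and 6.33 to 32.8 and 36.4 CPM per kb. Rspo2 was under the filter with 0, 3, 3 and 7 counts, as was Rspo4 with 9, 4, 0 and 1.

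Of the 4 TCF/LEF factors, which bring beta-catenin to target genes, Lef1 fell and the other 3 did not pass the test. Lef1 (chr3:131110471-131224356, + strand) went from 78.1 and 66.9 to 29.8 and 28.7 CPM. The groups did not overlap and the fall was 2.48-fold (log2 -1.31, SE 0.20, edgeR adjusted p = 0.0026). Tcf7l1, which acts mainly as a repressor in stem cells, was at 64.8 and 43.3 CPM at d2 and at 27.7 and 14.3 CPM at d4 (log2 -1.37, SE 0.36, edgeR adjusted p = 0.024). Its replicates differed on both days. Tcf7 overlapped between the days, at 75.5 and 60.4 and at 74.3 and 55.8 CPM (log2 -0.06, SE 0.23, edgeR adjusted p = 0.85), and so did Tcf7l2, at 9.24 and 9.64 and at 10.8 and 6.59 CPM (log2 -0.12, SE 0.31, edgeR adjusted p = 0.78). Per kb, Tcf7 was the highest of the 4 on both days, with 52.1% and 53.8% of the sum at d2 and 70.8% and 73.5% at d4.

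All 5 tested genes of the feedback list rose. These genes are switched on by beta-catenin in many tissues and then damp or tune the pathway. Not every gene that damps the pathway rose. Znrf3, Rnf43 and Nkd2, kept in other lists, had log2 fold changes of -0.03, 0.41 and -1.67, and of these only Nkd2 was called, as lower. Apcdd1, which codes for a membrane protein that binds WNT and inhibits it, went from 4.33 and 3.80 CPM to 244 and 217 CPM. It rose 56.6-fold (log2 5.82, SE 0.24, edgeR adjusted p = 4.0e-05). Lgr5 (chr10:115450311-115587780, - strand), an R-spondin receptor, went from 1.31 and 0.835 to 32.0 and 38.2 CPM, 32.6-fold higher (log2 5.03, SE 0.32, edgeR adjusted p = 9.4e-05). Nkd1 (chr8:88521354-88594884, + strand), which binds Dishevelled, rose 12.0-fold from 4.01 and 2.20 to 40.0 and 34.2 CPM (log2 3.58, SE 0.34, edgeR adjusted p = 3.2e-04). The days were well apart for these genes. Axin2 (chr11:108920349-108950783, + strand), the scaffold of the beta-catenin destruction complex most used as a readout of the pathway, was at 15.3 and 8.96 CPM at d2 and at 37.3 and 33.8 CPM at d4. It rose 2.93-fold (log2 1.55, SE 0.30, edgeR adjusted p = 0.0064), the smallest fold among the 5, and its call was lost with DESeq2 size factors in the same test. Notum, an enzyme that removes the lipid from WNT proteins (chr11:120653788-120661175, - strand), was low, at 0.327 and 0.683 and then 2.71 and 3.06 CPM (log2 2.48, SE 0.44, edgeR adjusted p = 0.0045, and log2 3.07 without d2 replicate 2). Of its exon bases 38.1% overlap exons on the opposite strand, and the counting kept strands apart. Sp5, a transcription factor target whose promoter window is printed above, was under the filter. It had 0 counts at d2 and 11 and 10 counts at d4, at least 3.21-fold above the floor. Summed over the 6 genes, the feedback level went from 4.26 and 2.77 to 39.2 and 35.8 CPM per kb. The gene with the highest share was Axin2 at d2 (65.3% and 58.7%) and Apcdd1 at d4 (48.3% and 47.1%).

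A further 78 genes of the pathway were read in the same fit. Of the 68 tested, 24 were higher at d4 (35.3%) and 7 lower (10.3%), beside 12.9% and 11.3% of all genes, and 37 did not pass the test. Among 14 tested secretion, co-receptor and receptor turnover genes, 4 rose and 1 fell. Wls, the carrier that brings WNT proteins to the cell surface, went from 19.4 and 20.3 to 225 and 240 CPM (log2 3.55, SE 0.21, edgeR adjusted p = 7.0e-05). Adgra2 and Reck, which together form a co-receptor for WNT7 on brain endothelium, both rose. Adgra2 went from 0 counts to 143 and 120 CPM, at least 557-fold above the floor (edgeR adjusted p = 4.5e-05), and Reck from 7.69 and 8.58 to 84.5 and 84.7 CPM (edgeR adjusted p = 9.6e-05). Lgr4, the broadly expressed R-spondin receptor, went from 50.1 and 68.6 to 127 and 137 CPM (edgeR adjusted p = 0.0070). Ror1, a WNT5A receptor, fell from 45.7 and 47.6 to 2.96 and 2.82 CPM (log2 -4.01, SE 0.24, edgeR adjusted p = 7.3e-05). The following genes were named after their values were seen, as partners of members. The co-receptors Lrp5 and Lrp6 had log2 fold changes of 0.20 and 0.24, the Frizzled ubiquitin ligase gene Znrf3 of -0.03, and Porcn, the enzyme that adds the WNT lipid, of 1.55, and edgeR's test did not call them.

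Inside the cell, most of the listed genes did not pass the test. Of 23 destruction complex and Dishevelled genes, all tested, 6 rose, 2 fell and 15 did not pass. The shares were 26.1% higher and 8.7% lower, beside 12.9% and 11.3% of all genes tested. For the nuclear cofactors below they were 33.3% and 11.1%. Tnks, which marks AXIN proteins for breakdown, rose from 126 and 135 to 421 and 446 CPM (log2 1.73, SE 0.19, edgeR adjusted p = 5.4e-04). Dact3 and Cxxc4, inhibitors that act at Dishevelled, rose by 2.03 and 2.56 on the log2 scale, and so did Cxxc5 by 1.06. The falling genes were Apc2 (log2 -2.42), a relative of Apc, and Nkd2 (log2 -1.67), the paralog of Nkd1. Ctnnb1, the gene of beta-catenin, was at 1230 and 1380 CPM at d2 and at 1130 and 1140 CPM at d4, with a log2 fold change of -0.21 (SE 0.18, edgeR adjusted p = 0.40), and is named as the partner of the TCF/LEF factors after its value was seen. Among 9 tested nuclear cofactors, Pygo1, Tle3 and Bcl9l rose, by 2.51, 1.77 and 1.53 on the log2 scale. Tle4, a Groucho co-repressor that binds TCF/LEF factors, fell from 170 and 159 to 30.1 and 24.5 CPM (log2 -2.59, SE 0.22, edgeR adjusted p = 2.0e-04).

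Of the 10 planar polarity genes, 4 rose and 3 fell. Daam2, a formin that binds Dishevelled, went from 2 and 2 counts (0.164 and 0.152 CPM) to 460 and 645 counts (38.9 and 37.9 CPM). Its ratio was 244-fold with an exact 95% counting interval of 94.8 to 895 (log2 7.85, SE 0.34, edgeR adjusted p = 4.1e-05). Daam1 rose by 2.02 on the log2 scale. Vangl1, a core polarity protein gene, rose from 7.20 and 5.85 to 74.4 and 70.4 CPM (edgeR adjusted p = 1.1e-04), and Prickle2 by 1.28 on the log2 scale. The cadherin genes Celsr3 (log2 -3.96) and Celsr2 (log2 -2.59) fell, as did Prickle1 (log2 -1.15). Of 5 tested genes of other secreted antagonists, Sost and Cer1 rose. Sost, which blocks LRP5 and LRP6, had 0 counts at d2 and 138 and 166 counts at d4, at least 45.3-fold above the floor (edgeR adjusted p = 1.9e-04). Cer1, an antagonist of WNT, NODAL and BMP proteins and also a gene of the endoderm list, had 0 and 2 counts at d2 and 59 and 32 counts at d4 (edgeR adjusted p = 0.0045).

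Of 7 tested streak and proliferation genes known to respond to WNT, 5 rose. Ccnd2, a cyclin of the first gap phase, went from 8.67 and 8.88 to 204 and 226 CPM (log2 4.61, SE 0.22, edgeR adjusted p = 4.5e-05). T, the Brachyury factor of the streak and also on the streak marker list, went from 0.409 and 0.607 to 21.5 and 17 CPM (log2 5.21, SE 0.36, edgeR adjusted p = 1.1e-04). Myc, a growth regulator, rose from 11.1 and 8.43 to 124 and 79.1 CPM (edgeR adjusted p = 2.8e-04). Cdx2, a posterior homeobox gene, had 0 and 2 counts at d2 and 106 and 118 counts at d4, a ratio of 98.7-fold with an exact 95% counting interval of 27.0 to 820 (edgeR adjusted p = 3.8e-04). The list was mixed beyond these genes. Ccnd1, a further cyclin gene, went from 190 and 182 to 137 and 132 CPM (log2 -0.47, edgeR adjusted p = 0.089). Tbx6 had a log2 fold change of 0.58 (edgeR adjusted p = 0.49). Neither passed the test, and both are named after their values were seen. Cdx1 and Msgn1, genes of posterior and presomitic mesoderm, had 0 counts in all libraries and are named after this was seen.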

How the data were processed

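RNA-seq was made from 2 d2 and 2 d4 cultures as strand-specific libraries read from both ends at 75 bp, and the replicates came from independent differentiation experiments. Per the study's methods, the authors trimmed reads with cutadapt, aligned them to mm10/GRCm38 with STAR and counted reads per gene on the reverse strand with featureCounts, leaving out multi-mapping reads. The methods name both a GENCODE and an Ensembl annotation. The deposited values are raw, unfiltered counts per gene. For this report, gene symbols, exon lengths and coordinates came from a GENCODE GRCm38 annotation (55227 of 55487 genes matched).

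Genes were kept when the summed counts of a day lay above 0.5 CPM by a one-sided proportion test (adjusted p under 0.05), which left 14932 genes and 99.84% to 99.86% of the counts. edgeR 4.0.16 in R 4.3.3 fitted TMM-normalized counts of all 4 libraries with day as the only term (glmQLFit, glmQLFTest, two-sided), and a gene was called at a Benjamini-Hochberg adjusted p under 0.01. An exact permutation test of 2 against 2 cannot go below p = 0.333, so none is given. P-values set the difference between days against the spread of these 2 samples per day. The fit drew each gene's variance toward a trend over all genes tested. A day with 0 counts was given a floor of 3 counts per library. Ratios with 1 to 3 counts on a day, and that of Daam2 with 4, carry an exact 95% binomial interval. Exons of the 51 genes overlap no other gene on the same strand.

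Called members are given by library, other tested members by level, and untested ones by counts. From each further list, up to 4 called genes per direction with the smallest adjusted p are named. Members and lists were chosen with earlier results of these data known. The scripts were tested on simulated data. Alternatives were DESeq2 1.42.0, its size factors, upper-quartile factors, limma 3.58.1 (voom), other filters and thresholds, a replicate block, and each library left out.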

Additional observations from a re-analysis of the deposited data

How the results depend on the processing

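The 27 called WNT genes kept their direction in every alternative run. Their values did not overlap between days, so leaving out a library could hardly have changed a direction. Without d2 replicate 1 or d2 replicate 2, edgeR called 0 genes in every list, with lowest adjusted p of 0.0181 and 0.0172 over all genes, and the lone sample is assumed to vary like the others. Over the fits that leave out 1 library, with edgeR and DESeq2, members higher ranged from 0 to 19 (18 with all libraries), members lower from 0 to 11 (9), further pathway genes higher from 0 to 25 (24) and lower from 0 to 8 (7). With DESeq2, leaving out a library kept 19, 19, 20 and 22 of the 27 calls (d2 replicates 1 and 2, d4 replicates 1 and 2), and Fzd1, Fzd7, Dkk2 and Notum were lost in each of these 4 fits. DESeq2 there called 5 members lower without d2 replicate 1, and 3 and 4 further genes lower without d2 replicates 1 and 2. With no filter, 11 further pathway genes were lower. The log2 fold change of Tcf7 turned from -0.06 to 0.10 without d2 replicate 1 (0.10 with DESeq2) and to 0.13 without d4 replicate 2 (0.12 with DESeq2), and that of Tcf7l2 from -0.12 to 0.20 (0.19 with DESeq2) without d4 replicate 2. Over the edgeR fits that leave out 1 library, Tcf7 ranged from -0.28 to 0.13 and Tcf7l2 from -0.52 to 0.20. The cause was not tested. The replicates share a number across days, but the labels do not say that it marks a shared differentiation, and the deviations of replicate 2 from replicate 1 correlated at 0.482 between days over genes. With the replicate block, edgeR called 20 members higher and 13 lower, 28 and 11 further pathway genes, and 3478 and 3496 of all genes, no call on the 27 was lost, and Wnt2b and Wnt5b (higher) and Fzd2, Fzd3, Fzd6 and Tcf7l1 (lower) were called in addition, Fzd3 with a log2 fold change of -1.06 (edgeR adjusted p = 3.6e-05). Over all tested genes the median log2 change was -0.027, and -0.112 with upper-quartile factors. Genes at a few counts, such as Wnt3a and Sp5, were limited by depth.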

Other observations

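Some WNT ligand genes lie beside another ligand gene. On chromosome 11, Wnt9b (chr11:103727364-103749821, - strand) and Wnt3 (chr11:103774150-103817957, + strand) are transcribed away from each other, and both rose. On the same chromosome, Wnt3a (chr11:59248033-59290752, - strand) and Wnt9a (chr11:59306928-59333552, + strand) have the same layout. Wnt3a had 1, 1, 1 and 3 counts, and Wnt9a did not pass the test. The pair Wnt10b (chr15:98770712-98778150, - strand) and Wnt1 (chr15:98789857-98793837, + strand) held at most 1 count in a library, and of the pair Wnt6 (chr1:74771892-74785322, + strand) and Wnt10a (chr1:74791516-74804179, + strand) Wnt6 had 3 counts in d4 replicate 2 and Wnt10a none.

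Apc, the adenomatous polyposis coli scaffold of the destruction complex, was at 159 and 184 CPM at d2 and at 35.5 and 154 CPM at d4. Like Fzd3, it was lower in d4 replicate 1 than in the other 3 libraries, and its d4 replicates differed.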
